A study of Mus musculus with 10 samples.

Results

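The collagen and laminin genes of mouse embryonic stem cells (ESCs) were followed across WT cells, DGCR8 KO cells and DDX6 KO cells. Members were every row of the count table whose gene identifier maps to a protein-coding gene with a collagen α chain symbol (Col, a number, a, a number) or a laminin chain symbol (Lama, Lamb or Lamc with a number). This rule uses no measured value and gave the 54 genes described here, of the 51467 in the table, 44 collagens and 10 laminins. QuantSeq 3′ FWD libraries, which count 1 tag near the 3′ end of each captured mRNA, were made from ESCs grown with serum, LIF and 2i (the inhibitors PD0325901 and CHIR99021). The 3 WT libraries came from the V6.5 line that was the parent of the DDX6 KO cells, the 3 DGCR8 KO libraries came from a knockout line that the study's methods describe as made earlier, and the labels call all knockout cells CRISPR-made. The 4 DDX6 KO libraries came from 2 clones made with the same guide, with 2 libraries from each clone. DGCR8 KO was represented by 1 line, so a change shared by its libraries and a property of that line cannot be told apart. The labels do not say that libraries of a group came from separate cultures, so p-values measure the spread between these libraries, which may be technical.

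Collagens are extracellular matrix proteins whose α chains wind around each other into a helix, and they are sorted into fibril-forming, network-forming, fibril-associated, transmembrane and other types. Laminins are cross-shaped proteins of an α, a β and a γ chain and are, with type IV collagen, the core of basement membranes, the thin matrix sheets under epithelia and the first matrix of the early embryo. DGCR8 is the RNA-binding partner of Drosha and is required to make canonical miRNAs, and DDX6 is an RNA helicase of P-bodies that acts in translational repression and decapping of mRNAs.

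Library totals ranged from 2131156 to 4745083 counts, so 3 counts, the number that a count of 0 leaves possible, correspond to 0.665 to 1.43 normalised CPM (counts scaled to a fixed library size). Dgcr8 was at 50.1 to 65.4 CPM in WT, 9.11 to 15.4 in DGCR8 KO and 34.9 to 51.8 in DDX6 KO libraries. Ddx6 was at 502 to 583 CPM in WT, 484 to 518 in DGCR8 KO, 134 to 149 in clone 1 and 25.6 to 38.8 in clone 2 of DDX6 KO. All 8 ESC markers examined were expressed. Their summed level was 3766 to 4269 CPM in WT, 3317 to 3825 in DGCR8 KO and 3784 to 4297 in DDX6 KO libraries. At an adjusted p under 0.05 (limma, described below), 4 were lower and 1 higher in DGCR8 KO, against 16.5% and 19.9% of all tested genes. In DDX6 KO 1 was lower and 1 higher, against 16.6% and 17.9%. No marker changed by more than 1 on the log2 scale. The 10 fibroblast or feeder markers summed to 5.32 to 10.5 CPM in every group, with Fap at 0 counts throughout and Dcn and Postn at 0 in WT and DDX6 KO. The highest of them were Pdgfrb and Twist1. Pdgfrb averaged 3.84 CPM in WT, 2.21 in DGCR8 KO and 2.5 in DDX6 KO, and Twist1 averaged 2.78, 3.89 and 1.85.

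The sequences next to the type IV collagen pair are shown first because these genes share a start region and changed together in DGCR8 KO cells. Col4a1 (chr8:11198423-11312826, minus strand) and Col4a2 (chr8:11312805-11449287, plus strand) are arranged head to head. Their start sites lie 21 bases apart and their first exons overlap on opposite strands, and the counting was strand-specific. The RefSeq promoter windows of GRCm38.p6, 250 bases before to 50 bases after the start, follow for these genes and for Lamb1, which moved in opposite directions in the knockouts, and Lama5, which was called higher in DGCR8 KO. Capitals mark letters searched on either strand, which were TATAAA for the TATA box, CCAAT for the box of that name and GGGCGG for the GC box. No pair of these motifs overlapped in the windows printed.
Col4a1 (chr8:11312777-11313076, minus strand): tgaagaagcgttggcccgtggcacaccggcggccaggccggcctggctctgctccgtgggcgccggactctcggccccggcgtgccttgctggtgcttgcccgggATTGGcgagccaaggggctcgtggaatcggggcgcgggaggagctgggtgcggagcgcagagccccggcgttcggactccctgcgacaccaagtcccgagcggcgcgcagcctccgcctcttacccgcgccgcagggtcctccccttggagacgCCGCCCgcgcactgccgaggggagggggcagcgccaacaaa
Col4a2 (chr8:11312555-11312854, plus strand): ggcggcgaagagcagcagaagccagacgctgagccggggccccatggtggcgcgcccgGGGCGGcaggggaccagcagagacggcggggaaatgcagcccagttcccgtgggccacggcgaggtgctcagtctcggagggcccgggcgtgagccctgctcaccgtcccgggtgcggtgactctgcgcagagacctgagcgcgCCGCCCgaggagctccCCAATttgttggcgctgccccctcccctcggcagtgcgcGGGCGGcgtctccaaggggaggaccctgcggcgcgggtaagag
Lamb1 (chr12:31265043-31265342, plus strand): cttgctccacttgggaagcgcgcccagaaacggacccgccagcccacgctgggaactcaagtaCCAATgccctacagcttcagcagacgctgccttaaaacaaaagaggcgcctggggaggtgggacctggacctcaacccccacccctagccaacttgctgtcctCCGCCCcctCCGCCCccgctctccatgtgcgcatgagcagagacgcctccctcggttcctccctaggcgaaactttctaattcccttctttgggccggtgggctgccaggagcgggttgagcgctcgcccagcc
Lama5 (chr2:180225810-180226109, minus strand): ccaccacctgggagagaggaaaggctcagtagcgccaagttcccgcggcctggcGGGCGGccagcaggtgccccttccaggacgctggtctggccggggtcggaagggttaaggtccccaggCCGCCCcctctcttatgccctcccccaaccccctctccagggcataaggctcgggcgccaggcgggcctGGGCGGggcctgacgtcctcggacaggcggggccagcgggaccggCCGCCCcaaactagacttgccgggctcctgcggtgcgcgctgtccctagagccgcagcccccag

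The Col4a1 and Col4a2 windows share 78 bases and are 74% and 73.7% GC, against a median of 52.7% over all 32851 promoter windows. Both hold CCAAT and GGGCGG letters and neither holds TATAAA. The promoter table had 44 windows for 40 of the 54 genes. GGGCGG was present in 26 of the 44 (59.1%, against 35.7% of all windows), CCAAT in 14 (31.8%, against 37.4%) and TATAAA in 5 (11.4%, against 13.6%). Among the 10 windows found for 9 tested genes, TATAAA was present only in that of Col13a1. These matches describe letters in a window and say nothing of whether a factor binds there.

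Because DGCR8 KO cells lack canonical miRNAs, the 3′ UTRs of the members were also searched for the seed matches of 2 miRNA families, the AAGUGC family that is abundant in ESCs and the miR-29 family, which is known for matches in collagen mRNAs. The RefSeq mature sequences are given with bases 2 to 8, the seed, in capitals.
miR-294-3p: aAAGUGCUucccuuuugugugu
miR-302b-3p: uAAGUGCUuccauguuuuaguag
miR-29a-3p: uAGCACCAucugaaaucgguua
miR-29b-3p: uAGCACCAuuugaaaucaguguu
miR-29c-3p: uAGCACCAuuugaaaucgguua
The 7-base miR-29 site TGGTGCT was present in the 3′ UTR of 25 of the 54 genes (46.3%), 24 of 44 collagens (54.5%) and 1 of 10 laminins (10%), against 12.2% of 21022 coding genes. Median 3′ UTR lengths were 965 bases for collagens, 204 for laminins and 847 for all coding genes, and longer UTRs hold more matches. The 6-base site GCACTT of the AAGUGC family was present in 13 of the 54 (24.1%, against 26.8% of all coding genes). Of the 15 members tested below, Col1a1, Col2a1, Col4a1, Col4a2, Col5a1 and Lamc1 held a miR-29 site, and Col4a1, Col4a2, Lama3 and Lamc1 held a GCACTT site. Sites are given with 8 flanking bases on each side and the match in capitals, for the type IV pair with both kinds of match and for Col2a1, the only one of the 6 tested genes with a miR-29 site that was called higher in DGCR8 KO cells.
Col4a1, miR-29 site: tcacaacaTGGTGCTactccccc
Col4a2, first miR-29 site: ggccacgtTGGTGCTtatccttc
Col4a2, second miR-29 site: acccagctTGGTGCTtactctta
Col2a1, miR-29 site: ctacacaaTGGTGCTattctgtg
Col4a1, GCACTT site: aataaagcGCACTTggttttcg
Col4a2, GCACTT site: agatgataGCACTTttttctat
Neither miRNA levels nor binding were measured in these libraries, so a match is a description of the sequence only.

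Most chains were near or below detection in these cells. Of the 54 genes, 7 had 0 counts in all 10 libraries, 15 had 1 to 9 counts in all libraries together, 17 had at least 10 counts but did not pass the filter of 3 CPM in at least 3 libraries, and 15 were tested. The 7 genes at 0 were collagens: Col4a3 and Col4a4, a second head-to-head pair of type IV chains, Col6a2 of the beaded-filament type, Col10a1, Col19a1, Col25a1 and Col28a1. A count of 0 in 1 library allows up to 3 counts, or 0.665 to 1.43 CPM depending on the library. Because these genes were at 0 in all 10 libraries, the bound over the libraries together is lower. They may still be expressed below it.

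**Figure D1:**
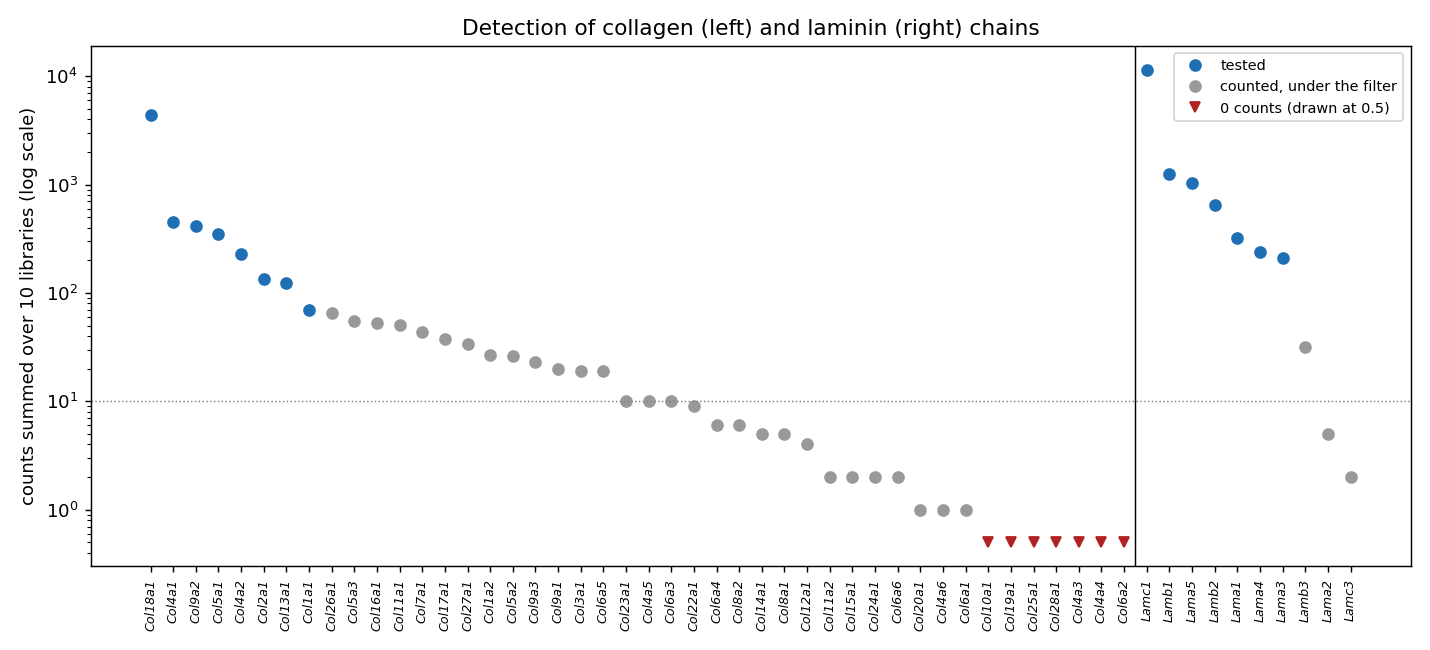
Counts summed over the 10 libraries, on a log scale, for each of the 44 collagen genes (left of the line) and 10 laminin genes (right). Blue points are the 15 tested genes, grey points genes with counts that did not pass the filter, and red triangles the 7 genes with 0 counts, drawn at 0.5; the dotted line marks 10 counts. Col18a1 and Lamc1 head the 2 classes.

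Among the 17 genes with at least 10 counts that were not tested, summed counts ran from 65 (Col26a1) to 10 (Col4a5, Col23a1 and Col6a3). Col5a3, a fibril-forming chain, had 55 counts and averaged 2.92 ± 2.08 CPM in WT, 1.23 ± 1.02 in DGCR8 KO and 0.915 ± 0.716 in DDX6 KO (SD, n = 3, 3 and 4, as for all CPM values below). Col16a1 had 53, Col11a1 51, Col7a1 44, Col17a1 38, Col27a1 34, Lamb3 32, Col1a2 27, Col5a2 26, Col9a3 23, Col9a1 20, and Col3a1 and Col6a5 19 each. Col27a1, a fibril-forming chain, had 3, 12 and 8 counts in the WT libraries and 2, 1 and 0 in DGCR8 KO, and Col6a5, a type VI chain, had 0 counts in each WT library and 5, 6 and 2 in DGCR8 KO. Without the filter both were called in DGCR8 KO, Col27a1 lower and Col6a5 higher. Lamb3, the β chain that pairs with Lama3 in epithelia, had 2, 1 and 0 counts in WT, 5 and 3 in DDX6 KO clone 1 and 3 and 14 in clone 2, so that 1 library held 14 of its 32 counts. The fibril chains Col1a2 and Col3a1 stayed under 1.1 CPM on average in each group. The 15 genes with 1 to 9 counts were Col22a1 with 9, Col6a4 and Col8a2 with 6 each, Col8a1, Col14a1 and Lama2 with 5, Col12a1 with 4, Col6a6, Col11a2, Col15a1, Col24a1 and Lamc3 with 2, and Col4a6, Col6a1 and Col20a1 with 1.

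The 15 tested genes were Col1a1, Col2a1, Col4a1, Col4a2, Col5a1, Col9a2, Col13a1 and Col18a1, and Lama1, Lama3, Lama4, Lama5, Lamb1, Lamb2 and Lamc1. Col1a1 and Lama4 reached 3 CPM in DDX6 KO libraries only, so they entered the test through the group in which they were highest. Before scaling, Col13a1 reached 3 CPM in 3 WT libraries, 1 DDX6 KO library and no DGCR8 KO library. Col2a1 did so in 3 DGCR8 KO libraries, 1 WT library and no DDX6 KO library. Without its highest group, neither Col13a1 nor Col2a1 would have passed the filter. A gene was called when its adjusted p was below 0.05 (limma with voom weights, adjusted over all 11683 tested genes) and its log2 fold change was beyond 1 in size. Against WT, 3 members were called higher in DGCR8 KO (Col2a1, Lama5 and Lamb2), where 8.93% of all tested genes were, and 5 were called lower (Col4a1, Col4a2, Col13a1, Lama1 and Lamb1), where 5.8% were. In DDX6 KO against WT, 3 members were called higher (Lama3, Lama4 and Lamb1), where 7.55% of tested genes were, and 2 were called lower (Col2a1 and Col13a1), where 3.66% were. Without WT replicate 3 the DDX6 KO count of 5 went to 3, with Lama3 and Col2a1 lost. On the adjusted p alone, DGCR8 KO had 4 members higher (all genes 19.9%; 5 with the replicate number as a block, which adds Lamc1) and 5 lower (16.5%), and DDX6 KO had 3 higher (17.9%) and 4 lower (16.6%). Both contrasts use the same WT libraries, so their counts are not independent. The median log2 fold change of the 8 tested collagens was -0.85 in DGCR8 KO and -0.50 in DDX6 KO, and that of the 7 tested laminins was 0.25 and 0.02, where the medians of all tested genes were 0.00 and 0.02.

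**Figure D2:**
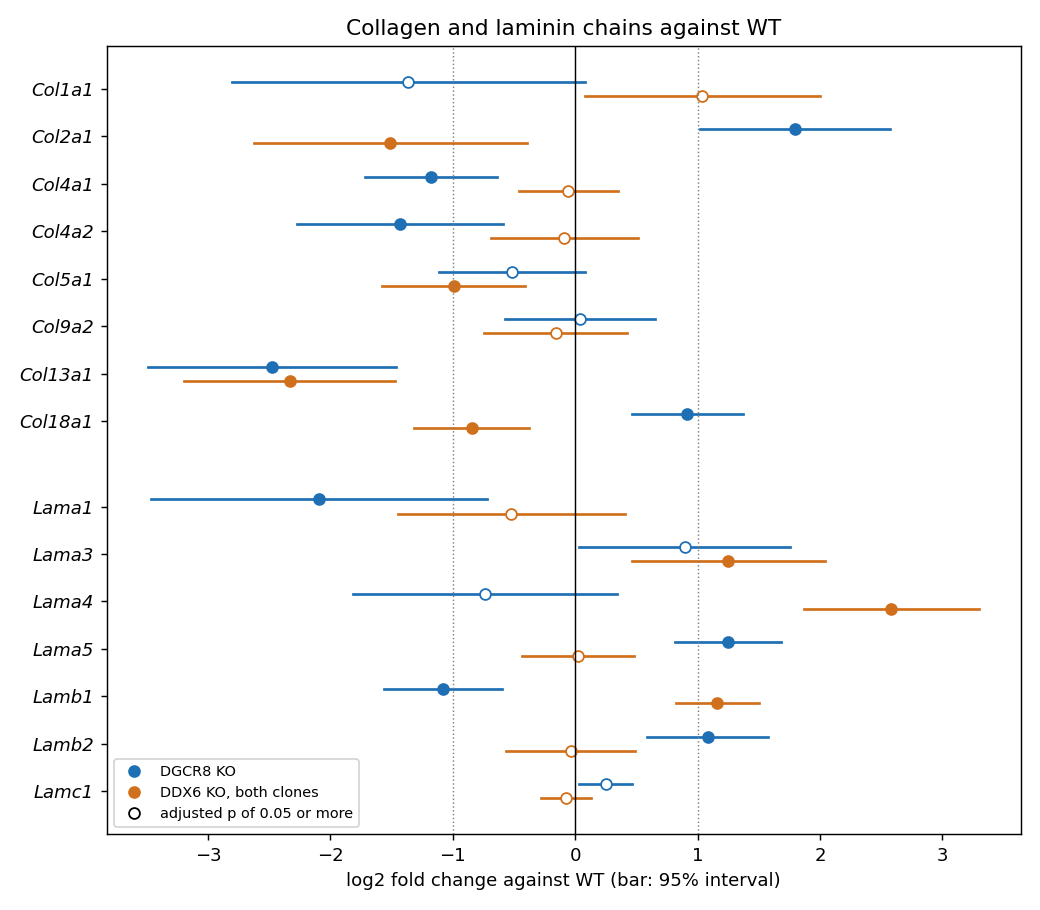
Log2 fold change against WT of the 15 tested collagen and laminin genes, for DGCR8 KO (blue) and DDX6 KO with both clones (orange), with 95% intervals; open points have an adjusted p of 0.05 or more and dotted lines mark a log2 fold change of 1 in size. Col13a1 lies left of -1 in both knockouts, while Lamb1, Col2a1 and Col18a1 have filled points on opposite sides of 0.

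Type IV collagen, the network-forming collagen of basement membranes, fell in DGCR8 KO cells. Col4a1 was at 20.5, 19.3 and 16.2 CPM in the WT libraries, 10.7, 6.41 and 6.89 in DGCR8 KO, 17.9 and 16.3 in DDX6 KO clone 1 and 15.7 and 19.8 in clone 2. All 3 DGCR8 KO libraries lay below every other library, and the DDX6 KO libraries overlapped WT. Its log2 fold change was -1.18 ± 0.26 (SE, adjusted p = 0.00148) in DGCR8 KO and -0.05 ± 0.19 (adjusted p = 0.851) in DDX6 KO, where the 95% interval ran from -0.46 to 0.35. Col4a2, the partner chain in the same helix, was at 7.16, 12.5 and 8.65 CPM in WT, 3.65, 1.69 and 6.48 in DGCR8 KO, 9.84 and 7.96 in clone 1 and 8.75 and 8.63 in clone 2. The DGCR8 KO libraries were again below all others, although the highest of them was close to the lowest WT library. Its log2 fold change was -1.43 ± 0.40 (adjusted p = 0.00879) in DGCR8 KO and -0.09 ± 0.28 (adjusted p = 0.838) in DDX6 KO, with a 95% interval from -0.68 to 0.51. Without DGCR8 KO replicate 2, the Col4a2 value in DGCR8 KO was -0.96 with an adjusted p of 0.0622. The other type IV chains were at 10 counts (Col4a5), 1 count (Col4a6) and 0 counts.

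Chromosome 8, which carries Col4a1 and Col4a2, was lower as a whole in the DGCR8 KO libraries. The median log2 fold change of its 644 tested genes was -0.45 in DGCR8 KO and -0.03 in DDX6 KO, and the chromosome medians of single libraries ran from -0.51 to -0.38 in DGCR8 KO. After the median of the chromosome was subtracted, Col4a1 was at -0.72 (adjusted p = 0.0348) and Col4a2 at -0.98 (adjusted p = 0.0647), so that neither remained beyond 1 and Col4a2 no longer passed the test. Whether the chromosome-wide shift sets the type IV values was not tested. Chromosome 6, which had a median of 0.59 in DDX6 KO, holds no tested member; Col1a2 and Col28a1 lie on it.

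Of the fibril-forming collagens, Col2a1, the chain of cartilage and notochord collagen, was higher in DGCR8 KO and lower in DDX6 KO. Col2a1 (chr15:97975602-98004695) was at 1.91, 3.73 and 3.1 CPM in WT, 8.22, 12.2 and 12.6 in DGCR8 KO, 1.82 and 0.692 in DDX6 KO clone 1 and 0.7 and 0.835 in clone 2. The 3 DGCR8 KO libraries lay above and the 4 DDX6 KO libraries below all WT libraries, the latter on only 5, 2, 2 and 3 counts. The log2 fold change was 1.80 ± 0.37 (adjusted p = 0.000937) in DGCR8 KO and -1.51 ± 0.53 (adjusted p = 0.0342) in DDX6 KO. Without the DGCR8 KO libraries Col2a1 would not have passed the filter, a selection that favours a gene high in that group. Summed over libraries, WT exceeded DDX6 KO 3.06-fold (29 against 12 counts, 95% counting interval 1.51 to 6.58). This interval covers counting error only and not the spread between libraries. The DDX6 KO call did not hold without WT replicate 2 (-1.36, adjusted p = 0.0905), WT replicate 3 (-1.47, adjusted p = 0.0963), DDX6 KO clone 1 replicate 2 (-1.40, adjusted p = 0.0797), clone 2 replicate 1 (-1.40, adjusted p = 0.0807) or clone 2 replicate 2 (-1.44, adjusted p = 0.0783).

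Col5a1 (chr2:27886425-28039514), a chain that co-assembles with type I collagen fibrils, was at 13.9, 16.6 and 16 CPM in WT, 17.4, 7.43 and 9.32 in DGCR8 KO, 9.84 and 8.3 in DDX6 KO clone 1 and 8.75 and 5.57 in clone 2. Every DDX6 KO library was below every WT library, while the DGCR8 KO libraries spanned the WT range. It fell by 0.99 ± 0.28 on the log2 scale in DDX6 KO (adjusted p = 0.0102), just inside the fold threshold. In DGCR8 KO its log2 fold change was -0.51 ± 0.28 (adjusted p = 0.168), with a 95% interval from -1.11 to 0.08. Col1a1 (chr11:94936224-94953042), the main chain of type I collagen, had 4, 7 and 6 counts in WT, 2, 2 and 1 in DGCR8 KO, 19 and 9 in DDX6 KO clone 1 and 8 and 12 in clone 2. These counts correspond to 1.87 ± 0.522 CPM in WT, 0.563 ± 0.141 in DGCR8 KO and 4.04 ± 1.93 in DDX6 KO. The 3 groups did not overlap, yet neither knockout passed the test against WT, with log2 fold changes of -1.36 ± 0.69 (adjusted p = 0.131) and 1.04 ± 0.46 (adjusted p = 0.0866).

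The fibril-associated chain Col9a2 (chr4:121039385-121055322) differed by less than the spread between libraries. It averaged 14.1 ± 2.03 CPM in WT, 14.9 ± 7.61 in DGCR8 KO and 12.2 ± 2.3 in DDX6 KO, with 95% intervals of the log2 fold change from -0.58 to 0.66 and from -0.74 to 0.42. DGCR8 KO replicate 2, at 23.3 CPM, was the highest library and DGCR8 KO replicate 3, at 8.51 CPM, the lowest.

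The transmembrane collagen Col13a1 (chr10:61838236-61979108) fell in both knockouts. It was at 8.6, 10.2 and 8.65 CPM in WT, 2.44, 1.01 and 1.22 in DGCR8 KO, 0.729 and 1.38 in DDX6 KO clone 1 and 3.5 and 1.95 in clone 2. No knockout library reached the lowest WT library. The log2 fold change was -2.48 ± 0.48 (adjusted p = 0.000568) in DGCR8 KO and -2.33 ± 0.41 (adjusted p = 0.000318) in DDX6 KO. Knockout counts ran from 2 to 10 per library, against 18, 30 and 39 in WT. Without the WT libraries Col13a1 would not have passed the filter, a selection that favours a gene high in WT.

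Col18a1 (chr10:77052178-77166548), a basement membrane collagen whose C-terminal fragment is endostatin, moved in opposite directions in the knockouts. It was at 200, 110 and 113 CPM in WT, 290, 242 and 218 in DGCR8 KO, 94.7 and 50.9 in DDX6 KO clone 1 and 106 and 58.7 in clone 2. All DGCR8 KO libraries were above and all DDX6 KO libraries below the WT range, with WT replicate 1 far above the other WT libraries. Col18a1 was highest in replicate 1 of WT, of DGCR8 KO and of each DDX6 KO clone. It rose by 0.92 ± 0.22 on the log2 scale in DGCR8 KO (adjusted p = 0.00288) and fell by 0.85 ± 0.22 in DDX6 KO (adjusted p = 0.00722), neither beyond 1. Without WT replicate 1 the DGCR8 KO value was 1.16, and without DGCR8 KO replicate 3 it was 1.01, both past the fold threshold. Leaving out 1 library moved the DDX6 KO value between -0.60 (adjusted p = 0.0447, without WT replicate 1) and -1.01 (without clone 2 replicate 1). Col18a1 made up 43.9% to 79.5% of the collagen counts of a library. The summed collagen level, 235 ± 51.6 CPM in WT, 318 ± 43.8 in DGCR8 KO and 147 ± 28.9 in DDX6 KO, therefore mostly follows this gene.

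**Figure D3:**
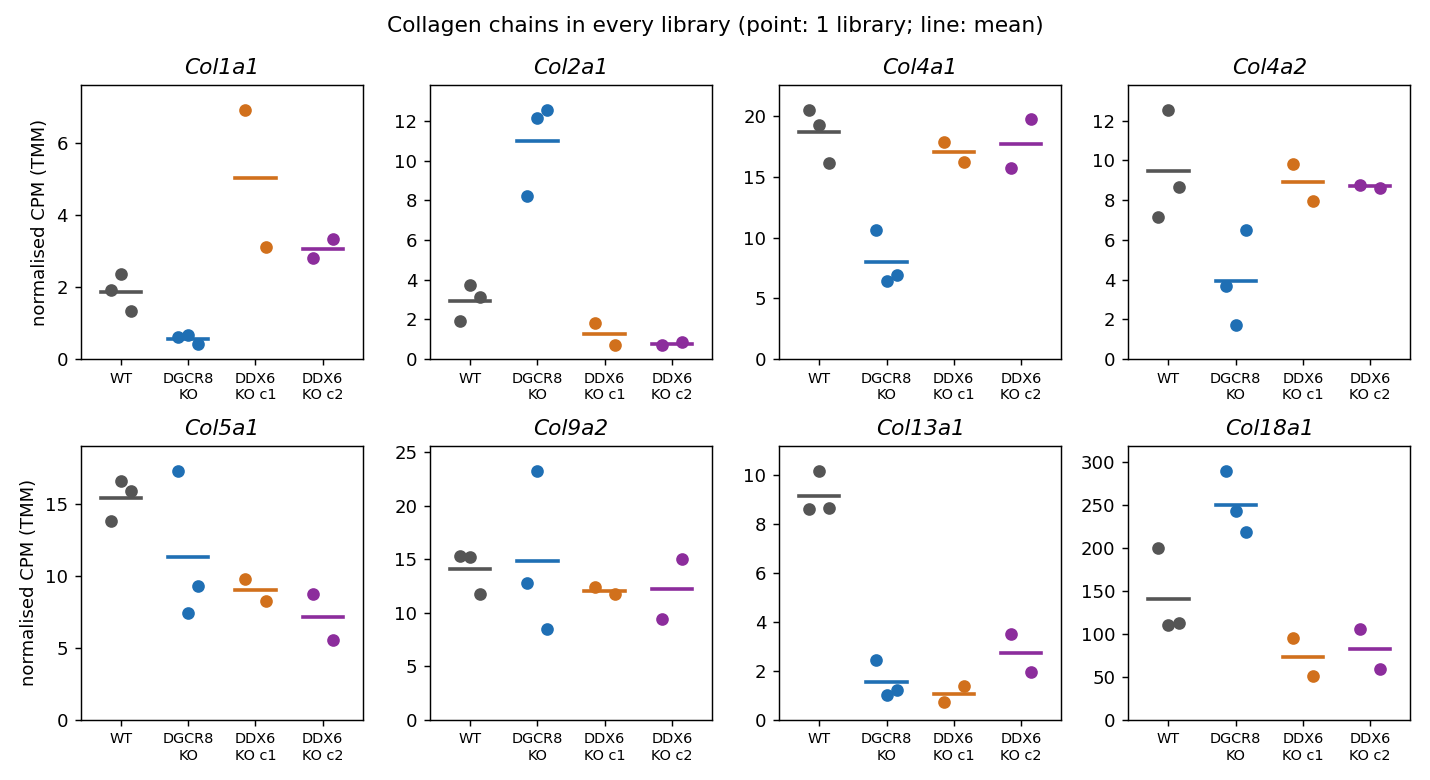
Normalised CPM of the 8 tested collagen genes in each library, with 1 point per library and a line at the mean of WT, DGCR8 KO and each DDX6 KO clone (c1 and c2); each axis starts at 0 and has its own scale. Col4a1 and Col4a2 are low in DGCR8 KO alone, Col13a1 is low in both knockouts, and Col18a1 and Col2a1 are high in DGCR8 KO and low in DDX6 KO.

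Laminin α chains carry the cell-binding globular domains, and of the 4 tested, Lama5 was called higher and Lama1 lower in DGCR8 KO, and Lama3 and Lama4 higher in DDX6 KO. Lama5 (chr2:180176373-180225859), the widely expressed α5 chain, was at 33.4, 16.3 and 26.4 CPM in WT, 68.2, 50 and 53.5 in DGCR8 KO, 24.8 and 22.1 in DDX6 KO clone 1 and 29 and 22.3 in clone 2. The DGCR8 KO libraries lay above all others, and the DDX6 KO libraries fell within the WT range. Lama5 was highest in replicate 1 of WT, of DGCR8 KO and of each clone. The log2 fold change was 1.25 ± 0.21 (adjusted p = 0.000128) in DGCR8 KO and 0.02 ± 0.22 (adjusted p = 0.951) in DDX6 KO, with a 95% interval from -0.43 to 0.48. Without WT replicate 2 the DGCR8 KO value was 0.98 (adjusted p = 0.00101), just under the fold threshold.

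Lama4 (chr10:38965515-39110188), the α4 chain of endothelial and mesenchymal matrix, rose in DDX6 KO cells. It was at 2.87, 2.37 and 2.66 CPM in WT, 1.52, 1.35 and 1.62 in DGCR8 KO, 17.1 and 21.1 in DDX6 KO clone 1 and 14.3 and 14.5 in clone 2. Both clones were far above WT and did not overlap with it, and the DGCR8 KO libraries, on 4 or 5 counts each, were the lowest. Lama4 passed the filter through DDX6 KO libraries only, a selection that favours a gene high in that group. The log2 fold change was 2.58 ± 0.34 (adjusted p = 1.92e-05) in DDX6 KO, 201 against 25 summed counts, and -0.74 ± 0.51 (adjusted p = 0.281) in DGCR8 KO, with a 95% interval from -1.82 to 0.34.

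Lama3, the α3 chain of epithelial laminin, also rose in DDX6 KO. It was at 2.87, 6.1 and 2.88 CPM in WT, 4.26, 10.1 and 8.1 in DGCR8 KO, 8.74 and 7.61 in DDX6 KO clone 1 and 10.8 and 8.63 in clone 2. All DDX6 KO libraries were above WT, and the DGCR8 KO libraries overlapped both. The log2 fold change was 1.25 ± 0.38 (adjusted p = 0.0154) in DDX6 KO and 0.89 ± 0.41 (adjusted p = 0.0961) in DGCR8 KO. Without WT replicate 3 the DDX6 KO value was 0.96 (adjusted p = 0.142). Lama1 (chr17:67697265-67822645), the α1 chain of the early embryo's basement membranes, varied most within groups. It was at 7.16, 13.2 and 20.4 CPM in WT, 1.83, 2.03 and 10.1 in DGCR8 KO, 4.74 and 18 in DDX6 KO clone 1 and 5.25 and 16.4 in clone 2. The groups overlapped, and Lama1 was lowest in replicate 1 of WT, of DGCR8 KO and of each clone. It fell by 2.09 ± 0.65 on the log2 scale in DGCR8 KO (adjusted p = 0.0175). That call did not hold without WT replicate 3 (-1.66, adjusted p = 0.0849), DGCR8 KO replicate 1 (-1.66, adjusted p = 0.0965) or DGCR8 KO replicate 2 (-1.795, adjusted p = 0.0537). In DDX6 KO the value was -0.52 ± 0.44 (adjusted p = 0.38), with a 95% interval from -1.45 to 0.40. The α2 chain Lama2 had 5 counts in all.

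The β chain Lamb1 (chr12:31265234-31329644) moved in opposite directions in the knockouts. It was at 31.5, 32.5 and 28.2 CPM in WT, 17.7, 16.9 and 8.91 in DGCR8 KO, 77.6 and 64.7 in DDX6 KO clone 1 and 68.9 and 62.6 in clone 2. The 3 groups were separate, with means of 71.2 CPM in clone 1 and 65.8 in clone 2. It fell by 1.08 ± 0.23 on the log2 scale in DGCR8 KO (adjusted p = 0.00122) and rose by 1.16 ± 0.16 in DDX6 KO (adjusted p = 3.29e-05). Without DGCR8 KO replicate 3 the fall was -0.80 (adjusted p = 0.0069), under the fold threshold. Lamb2 (chr9:108479857-108490530), the alternative β chain, was at 16.2, 15.3 and 16 CPM in WT, 31.7, 26 and 48.6 in DGCR8 KO, 11.7 and 18 in DDX6 KO clone 1 and 18.9 and 14.2 in clone 2. The DGCR8 KO libraries were the highest and the DDX6 KO libraries lay on both sides of WT. It rose by 1.08 ± 0.24 on the log2 scale in DGCR8 KO (adjusted p = 0.00143), or 0.86 (adjusted p = 0.00562) without DGCR8 KO replicate 3, and was at -0.04 ± 0.25 (adjusted p = 0.925) in DDX6 KO, with a 95% interval from -0.56 to 0.49.

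Among endoderm markers, Dab2 had the order of groups seen for Lamb1 and Lama4, while the sum of the other markers did not. The 11 markers of primitive and extraembryonic endoderm, a cell type that secretes laminin and type IV collagen, summed to 11.2 to 15.3 CPM in WT, 7.92 to 9.79 in DGCR8 KO and 18.4 to 27.7 in DDX6 KO. Dab2 was the only one of the 11 that passed the filter, at 6.26 ± 2.4 CPM in WT, 1.06 ± 0.656 in DGCR8 KO and 16.5 ± 3.23 in DDX6 KO. Without Dab2 the other 10 summed to 4.07 to 7.76 CPM in WT, 6.7 to 9.45 in DGCR8 KO and 6.3 to 9 in DDX6 KO, ranges that overlap. Dab2, Col4a1, Col4a2, Lama1 and Lamb1 were all called lower in DGCR8 KO. The Col4a1 and Col4a2 calls did not hold after the median of their chromosome was subtracted, and the Lama1 call depended on single libraries. In DDX6 KO, Dab2 was called higher, while Col4a1, Col4a2 and Lama1 did not pass the test. Lama5 and Lamb2 were called higher in DGCR8 KO, where Dab2 was lower. The defining factors Gata4, Gata6 and Sox17 averaged 1.43 CPM or less in each group, and Sox7 had 0 counts in WT and DGCR8 KO. The part of these markers in the laminin and collagen values was not tested. In bulk libraries, fewer cells of a type and less RNA per cell cannot be told apart.

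The γ chain Lamc1 (chr1:153218922-153332786), the common γ chain of most laminins, held 67.9% to 81.1% of the counts of the 10 laminin genes of a library. It was at 318, 370 and 398 CPM in WT, 426, 424 and 445 in DGCR8 KO, 329 and 322 in DDX6 KO clone 1 and 351 and 378 in clone 2. The DGCR8 KO libraries were above all others by a small margin. The log2 fold change was 0.25 ± 0.10 (adjusted p = 0.0641) in DGCR8 KO, with a 95% interval from 0.03 to 0.47, and -0.07 ± 0.10 (adjusted p = 0.592) in DDX6 KO, with an interval from -0.28 to 0.13. With the replicate number as a block the DGCR8 KO value was 0.256 (adjusted p = 0.0278), and without WT replicate 3 it was 0.32 (adjusted p = 0.0421). The summed level of these 10 genes was 454 ± 40.9 CPM in WT, 554 ± 23.8 in DGCR8 KO and 493 ± 21.8 in DDX6 KO.

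**Figure D4:**
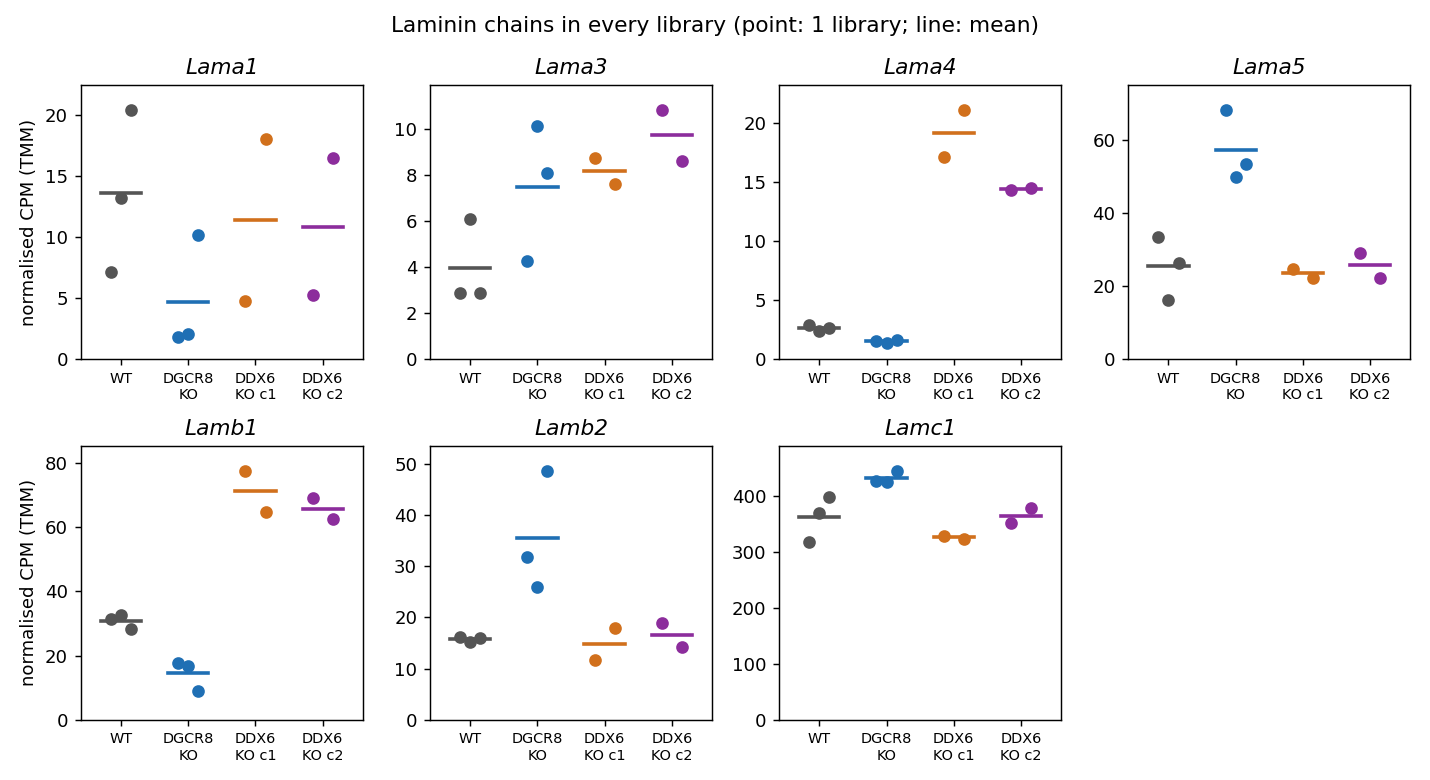
Normalised CPM of the 7 tested laminin genes in each library, with 1 point per library and a line at the mean of WT, DGCR8 KO and each DDX6 KO clone (c1 and c2); each axis starts at 0 and has its own scale. Lama4 and Lamb1 are highest in both DDX6 KO clones, and Lama5 and Lamb2 are highest in DGCR8 KO.

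The 2 knockouts were also compared with each other, since a change called in one and not in the other does not show that they differ. In DGCR8 KO minus DDX6 KO, 4 members were called higher (Col2a1, Col18a1, Lama5 and Lamb2), where 7.77% of tested genes were, and 5 lower (Col1a1, Col4a1, Col4a2, Lama4 and Lamb1), where 9.32% were. On the adjusted p alone 5 were higher (all genes 23%) and 5 lower (21%), which added Lamc1 at 0.32 ± 0.10 (adjusted p = 0.0111). Lamc1 did not pass with total count scaling (0.196, adjusted p = 0.0959), upper quartile scaling (0.232, adjusted p = 0.0624) or clone 2 alone (0.244, adjusted p = 0.107). The difference was -3.32 ± 0.42 for Lama4 (adjusted p = 6.12e-06), 201 counts in DDX6 KO against 13 in DGCR8 KO. Lama4 had passed the filter through DDX6 KO libraries only. For Lamb1 the difference was -2.24 ± 0.21 (adjusted p = 1.44e-07). Among collagens it was 3.30 ± 0.46 for Col2a1 (adjusted p = 1.61e-05) and 1.76 ± 0.22 for Col18a1 (adjusted p = 3.8e-06). Col2a1 would not have passed the filter without DGCR8 KO libraries. Col4a1 differed by -1.12 ± 0.25 (adjusted p = 0.00136) and Col4a2 by -1.34 ± 0.39 (adjusted p = 0.00926). Less the chromosome median the values were -0.69 (adjusted p = 0.0327) and -0.91 (adjusted p = 0.067), and without DGCR8 KO replicate 2 they were -0.97 (adjusted p = 0.0101) and -0.87 (adjusted p = 0.0697).

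Lama5 differed between the knockouts by 1.23 ± 0.19 (adjusted p = 5.03e-05) and Lamb2 by 1.12 ± 0.22 (adjusted p = 0.000456). Lamb2 was at 0.90 without DGCR8 KO replicate 3 and at 0.99 without DDX6 KO clone 1 replicate 1, under the fold threshold. For Col1a1 the difference was -2.40 ± 0.63 (adjusted p = 0.00457). Its summed counts gave 6.92-fold more in DDX6 KO than in DGCR8 KO (48 against 5 counts, 95% counting interval 2.77 to 22.3). The interval covers counting error only, and Col1a1 no longer passed the filter when DDX6 KO clone 1 replicate 1, clone 1 replicate 2 or clone 2 replicate 2 was left out. Lama1 was at -1.57 ± 0.65 (adjusted p = 0.0593). It passed the test without DGCR8 KO replicate 3 (-2.23, adjusted p = 0.04), DDX6 KO clone 1 replicate 1 (-1.88, adjusted p = 0.0273) or DDX6 KO clone 2 replicate 1 (-1.85, adjusted p = 0.0324). It also passed with total count scaling (adjusted p = 0.0425), upper quartile scaling (adjusted p = 0.0463), a fit of these 2 groups only (adjusted p = 0.0477) and the replicate block (adjusted p = 0.00102). Col13a1, which was low in both, differed by -0.14 ± 0.57 (adjusted p = 0.861), with a 95% interval from -1.34 to 1.05 that leaves room for a difference in either direction.

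The 2 DDX6 KO clones, which differ in the kind of mutation, gave no called difference for any tested member by limma-voom, edgeR or DESeq2. No member was called between clones, where 5 of all genes (0.0428%) were, and no member had an unadjusted p under 0.05, where 284 of all genes (2.43%) did. The largest clone difference among members was 1.17 for Col13a1, with a 95% interval from -0.33 to 2.67. Against WT, Lama4 was at 2.79 ± 0.35 in clone 1 and 2.39 ± 0.35 in clone 2, and Lamb1 was at 1.22 ± 0.19 and 1.11 ± 0.19. Col13a1 was at -2.95 ± 0.62 and -1.78 ± 0.44. All 6 of these clone values passed the test, which Lama4 had entered through DDX6 KO libraries only. Col13a1 would not have entered the test without the WT libraries. Lama3 passed in clone 2 (1.36, adjusted p = 0.0274) and was at 1.13 (adjusted p = 0.0754) in clone 1, and Col5a1 passed in clone 2 (-1.18, adjusted p = 0.0243) and was at -0.78 (adjusted p = 0.11) in clone 1. Col18a1 passed in clone 1 (-0.93, adjusted p = 0.0273) and was at -0.77 (adjusted p = 0.0536) in clone 2, while Col2a1 passed in neither (-1.25 and -1.74, adjusted p = 0.189 and 0.0862).

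Genes that fold, process, bind or degrade these chains were counted from lists that were chosen with earlier results known. Over all tested genes, 8.93% were called higher and 5.8% lower in DGCR8 KO, 7.55% and 3.66% in DDX6 KO, and 7.77% and 9.32% between the knockouts, and the median log2 fold changes were 0.00, 0.02 and 0.00. Of the collagen folding and modification genes, 16 of 19 were tested, and 1 was called higher in DGCR8 KO: Colgalt2, a collagen galactosyltransferase, at 1.41. In DDX6 KO, 2 were called higher and 1 lower. The collagen chaperone and isomerase Fkbp10 rose from 8.07 ± 1.36 CPM in WT to 35 ± 7.3 (log2 2.14), P3h4 rose by 1.79 on the log2 scale, and Colgalt2 was at -2.17. Between the knockouts, 2 of this list were called higher in DGCR8 KO (Colgalt2 at 3.58 and the prolyl hydroxylase subunit P4ha1 at 1.23) and 3 lower (Fkbp10 at -2.11, P3h4 at -1.12 and the lysyl hydroxylase Plod1 at -1.003). The median log2 fold change of the 16 genes was 0.11 in DGCR8 KO, -0.02 in DDX6 KO and -0.02 between the knockouts. The chaperone Serpinh1 and the disulfide isomerase P4hb passed in neither knockout against WT. With 16 genes, 1 or 2 called in a direction is near the share over all genes.

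Of the cross-linking and processing genes, 6 of 12 were tested. DGCR8 KO had 3 called higher, where 8.93% of all tested genes were (the lysyl oxidase Loxl4 at 3.38, the peroxidasin gene Pxdn at 1.52 and the procollagen enhancer Pcolce2 at 1.15) and 1 lower, where 5.8% were (Pcolce at -1.78). DDX6 KO had 3 called higher, where 7.55% of all genes were (Loxl4 at 3.95, Pxdn at 2.35 and Loxl1 at 1.35) and 0 lower. Loxl1 averaged 1.8 ± 0.706 CPM in WT, 1.17 ± 0.474 in DGCR8 KO and 4.7 ± 1.74 in DDX6 KO. Loxl1 thus entered the test through DDX6 KO libraries only, a selection that favours a gene high in that group. Loxl4 was at 0.272 ± 0.246 CPM in WT, 4.27 ± 2.68 in DGCR8 KO and 5.73 ± 4.12 in DDX6 KO, so its fold rests on a WT level under that of 3 counts. Pxdn, whose product cross-links type IV collagen, was at 2.5 ± 0.912 CPM in WT, 7.78 ± 2.66 in DGCR8 KO and 14.8 ± 4.94 in DDX6 KO. Between the knockouts, 1 of this list was called higher in DGCR8 KO (Adamts14 at 1.53) and 2 lower (Pcolce at -2.15 and Loxl1 at -1.90). The medians of the 6 genes were 0.86, 0.86 and -0.70 in the same order, against 0.00, 0.02 and 0.00 over all genes.

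Of the basement membrane partners, 9 of 11 were tested. DGCR8 KO had 4 called higher, where 8.93% of all tested genes were, and 0 lower: Ntn1 (netrin 1) at 2.11, Tinagl1 at 1.44, Npnt (nephronectin) at 1.31 and Smoc1 at 1.07. DDX6 KO had 0 called higher and 3 lower, where 3.66% of all genes were. The linker of laminin and type IV collagen Nid1 went from 296 ± 24.8 CPM in WT to 101 ± 9.94 in DDX6 KO (log2 -1.55). The heparan sulfate proteoglycan gene Agrn was at -1.22 and Smoc1 at -2.59. Between the knockouts 5 were called higher in DGCR8 KO, where 7.77% of all genes were, led by Smoc1 at 3.66, Ntn1 at 2.10 and Nid1 at 1.56, and 0 lower. The medians of the 9 genes were 0.41, -0.28 and 1.39, against 0.00, 0.02 and 0.00 over all genes. Nid1 itself was at 0.01 (adjusted p = 0.954) in DGCR8 KO against WT.

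Of the receptors, 8 of 14 were tested. DGCR8 KO had 1 called higher, the laminin-binding integrin chain Itgb4 at 1.78, and 1 lower, the collagen receptor kinase Ddr2 at -3.23, which is close to the 8.93% and 5.8% of all genes. DDX6 KO had 0 called in either direction, with 2 of the list passing on the adjusted p alone. Itgb4 and Ddr2 were also called between the knockouts, at 1.11 and -3.58. Ddr2 averaged 0.845 ± 0.775 CPM in DGCR8 KO, under the level of 3 counts (0.914 to 1.22 CPM in these libraries), so its folds rest on a group at the floor. The laminin-binding integrin chain Itga6 and the shared chain Itgb1 passed in neither knockout against WT. Itgb1 lies on chromosome 8 and was at 0.14 in DGCR8 KO, where the median of that chromosome was -0.45. Of the breakdown genes, 7 of 11 were tested. DGCR8 KO had 1 called higher (the membrane collagenase Mmp14 at 1.37), where 8.93% of all genes were. It had 2 lower (Mmp15, which lies on chromosome 8, at -2.21 and the inhibitor Timp2 at -1.91), where 5.8% were. DDX6 KO had 3 higher (Timp3 at 2.08, Mmp14 at 2.00 and Timp2 at 1.02), where 7.55% of all genes were, and 0 lower, where 3.66% were. Timp3 was at only 2.02 ± 1.51 CPM in WT and 7.34 ± 2.61 in DDX6 KO. Mmp14 was at 10.6 ± 1.89 CPM in WT, 26.5 ± 1.88 in DGCR8 KO and 40.9 ± 4.2 in DDX6 KO. Between the knockouts, 3 of the breakdown genes were called lower in DGCR8 KO (Timp2 at -2.93, Mmp15 at -1.34 and Timp3 at -1.31), where 9.32% of all genes were, and 0 higher. The medians were 0.07, 0.26 and -0.22 for the 8 receptors and 0.64, 0.31 and -0.63 for the 7 breakdown genes.

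The genes whose log2 CPM followed Col4a1 most closely over the 10 libraries were Wdr77 (Pearson r = 0.977), Rapgef3 (0.964), Rap2b (0.96), Vps36 (0.959) and Cntn2 (0.959), while Col4a2 had r = 0.785. For Lamb1 they were Clgn (0.985), Gulp1, Repin1, Eri1 and Trim63 (0.982 to 0.981). The 10 libraries fall into 3 genotypes and share their scaling, so these values describe likeness over genotypes and are not evidence of a relation between the genes.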

How the data were processed

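RNA was measured with QuantSeq 3′ FWD libraries, single-end, from WT (3), DGCR8 KO (3) and DDX6 KO (4, 2 clones) mouse ESCs. Per the labels and methods, the authors trimmed reads with cutadapt 1.14, aligned them to mm10 with STAR 2.5.3a, kept unique alignments and counted tags per gene on the sense strand with featureCounts 1.5.3. The deposited values are raw counts per gene, with 92 spike-in rows (1.1% to 2.36% of counts) that were left out of library sizes and tests. Symbols, coordinates and 3′ UTRs came from Gencode M21 (51274 of 51467 genes paired). The members and lists were chosen with earlier results of these data known.

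Genes that reached 3 CPM in 3 or more of the libraries were scaled by TMM and fitted with limma 3.58.1 and voom over all 10 libraries by genotype, and p-values were Benjamini-Hochberg adjusted over all 11683 genes. The study's methods name limma and this filter but not the transformation, so voom was chosen. CPM values are scaled tag counts, not divided by length. The tests compared them only within a gene, while sums and shares over genes are sums and shares of tags. For the clones the model was refitted with 4 groups. The exact counting interval is Clopper-Pearson and covers counting error only. edgeR 4.0.16 and DESeq2 1.42.0 were alternatives, with R 4.3.3. The fit was tested on simulated data.

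Named were the tested members with an adjusted p under 0.05 in any contrast, 6 chains chosen whatever their result (Col4a1, Col4a2, Lama1, Lama5, Lamb1 and Lamc1), untested members with at least 10 counts, and the 3 called genes of each list with the largest change in each contrast; Col9a2 was added because it completes the tested members, and list genes that did not pass were named after their values were seen. The 3′ UTR was that of the principal coding transcript. Replicate numbers are shared between groups. Same-numbered WT and DGCR8 KO libraries deviated together (correlations 0.145, 0.267 and 0.285), although the labels name no shared batch. Reported values come from the fit without the replicate number as a block, since the study's methods name no block, and the blocked value is given beside a result where it changes the outcome of the test. No protein sequences were used here, and 1 gene that meets the naming rule is not reported here.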

Additional observations from a re-analysis of the deposited data

Results flagged for a closer look

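Within the 4 DDX6 KO libraries, clone 1 replicate 1 stood apart for 2 genes. The gap between it and its nearest neighbour was 0.869 of the range of the group for Col1a1 and 0.873 for Col2a1, above the 95% critical value of Dixon's test for 4 samples. Such a gap appears by chance in about 1 in 20 groups, and both genes rest on few counts in these libraries (8 to 19 for Col1a1 and 2 to 5 for Col2a1).

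The changes of 10 members against WT differed between DGCR8 KO and DDX6 KO by the test of the difference itself, on the adjusted p alone. By that measure 23% of all tested genes were higher and 21% lower in DGCR8 KO than in DDX6 KO. On the log2 scale, DGCR8 KO minus DDX6 KO, the differences were 3.30 for Col2a1, 1.76 for Col18a1, 1.23 for Lama5, 1.12 for Lamb2 and 0.32 for Lamc1, which did not pass with total count scaling (0.196, adjusted p = 0.0959), upper quartile scaling (0.232, adjusted p = 0.0624) or clone 2 alone (0.244, adjusted p = 0.107). They were -3.32 for Lama4, -2.40 for Col1a1, -2.24 for Lamb1, -1.34 for Col4a2 and -1.12 for Col4a1. Lama4 and Col1a1 had passed the filter through DDX6 KO libraries only, and Col2a1 would not have passed without DGCR8 KO libraries.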

How the results depend on the processing

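With a filter of 10 CPM, 10 of the 15 members were tested and the called members went from 8 to 5 in DGCR8 KO and from 5 to 2 in DDX6 KO. With clone 1 alone 3 members were called in DDX6 KO, from fewer samples. Apart from leaving out WT replicate 3 (3 in DDX6 KO), the other alternatives left each count within 1.5 times the reported one; leaving out 1 library gave 6 to 9 in DGCR8 KO, 3 to 6 in DDX6 KO, 7 to 10 between the knockouts and 0 between clones. Of 649 recomputed gene values, 602 kept their direction and side of the threshold, 24 no longer passed the test, 9 newly passed it and 14 changed sign. The sign changes were all in DDX6 KO against WT, in genes that did not pass, and their cause was not tested beyond the construction of each alternative. With total count scaling, which shifted the median of all genes by 0.123 in DDX6 KO against WT and by -0.127 between the knockouts, Lamc1 was at 0.0453, Col4a1 at 0.0705 and Col4a2 at 0.0375. Lama5 was at -0.0313 with edgeR, -0.0437 with DESeq2 and -0.0329 in clone 1 alone, and Lamc1 was at 0.00664 in clone 2 alone. With the replicate number as a block, Lama5 was at -0.0255, Col4a2 at 0.0422 and Lama1 at 0.315. Leaving out 1 library gave ranges of -0.16 to 0.0014 for Lamc1, -0.20 to 0.10 for Col4a2 and -0.25 to 0.17 for Lama5. Same-numbered WT and DDX6 KO libraries did not all deviate together (correlations 0.0108 to 0.162), nor did those of DGCR8 KO and DDX6 KO (-0.0499 to 0.171), so the block is an alternative only for these contrasts. It left 8 members called in DGCR8 KO, gave 6 in DDX6 KO (Col5a1 added at -1.005), and gave 9 between the knockouts, with Lamb2 out (0.995) and Lama1 in (-1.89, adjusted p = 0.00102). DESeq2 did not call Lama1 in DGCR8 KO (-1.60, adjusted p = 0.131) and Col18a1 did not pass (0.81, adjusted p = 0.0662). Depth limits the chains under 10 counts per library, where 1 library can decide a call.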
